A study of Mus musculus with 28 samples.

Results

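The 26S proteasome is the protease that degrades ubiquitin-tagged proteins, and its transcripts were followed here in hippocampal microglia of the 5xFAD mouse model of amyloid deposition. The genes were chosen by symbol and level, as every Psma, Psmb, Psmc, Psmd or Psme symbol with a number, leaving out the inducible catalytic subunits Psmb8, Psmb9 and Psmb10 and keeping genes with a mean of at least 1 CPM over the libraries, where CPM is the count scaled to the size of its library. Of the 48587 genes in the table, 40 names fitted and 39 passed that floor. The 1 left out was Psmb11, a subunit of the thymus, with 2 reads in all libraries together. All 39 genes were also among the 15298 genes that entered the test, so no member was lost to a filter. They comprised 15 genes of the core particle (8 of the alpha ring and 7 of the beta ring), 17 of the regulatory particle (9 of the base and 8 of the lid), 3 assembly chaperones (Psmd5, Psmd9 and Psmd10) and 4 activators (Psme1 to Psme4).

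Microglia sorted as CD11b+ CD45low cells from the hippocampus were profiled by RNA-seq, 1 library per mouse, in 28 male C57BL/6J mice 16 weeks of age. The sort also left out cells that bound the antibodies of a dump gate, Ly6C and Ly6G among them. 5xFAD mice were heterozygous for human APP and PS1 transgenes under the neuronal Thy-1 promoter, so that the microglia themselves were not the cells meant to express them, and WT mice were their littermates. The groups were SPF WT (n = 5) and SPF 5xFAD (n = 3), kept under specific pathogen-free conditions, GF WT (n = 4) and GF 5xFAD (n = 5), born and kept germ-free in another facility after embryo transfer, and ABX WT (n = 5) and ABX 5xFAD (n = 6), which were SPF mice given vancomycin, cefoxitin, gentamicin and metronidazol in drinking water for 8 weeks. GF housing and facility cannot be told apart.

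Proteasomes consist of a barrel-shaped core particle, whose outer alpha rings gate the entry and whose inner beta rings hold the proteolytic sites, and a regulatory particle, whose base unfolds substrates with 6 ATPases (Psmc1 to Psmc6) and whose lid removes ubiquitin. Alternative activators can cap the core in place of the regulatory particle: Psme1 and Psme2 form the interferon-inducible activator PA28, Psme3 a related nuclear activator, and Psme4 the large activator PA200. In microglia as in other cells, proteasomes clear misfolded proteins and supply peptides for antigen presentation, and genes for the subunits are known to be transcribed in concert.

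Total counts ran from 14441610 to 29977395 per library, and microglial genes were abundant in every library, with Csf1r at 11761 to 16566, P2ry12 at 4137 to 12079, Cx3cr1 at 3575 to 7151 and Tmem119 at 2782 to 5915 CPM. Summed markers of lymphocytes and erythrocytes stayed below 1 CPM in every library. Neutrophil markers (S100a8, S100a9, Ngp, Camp, Ltf and Retnlg) summed to 61.1, 189.5 and 263 CPM in the 3 SPF 5xFAD libraries and to 144 CPM in ABX 5xFAD mouse FAD_ABX_1151, against at most 0.294 CPM in the libraries of the SPF WT, GF and ABX WT mice. Those 4 libraries also share a numbering style in the sample descriptions, which fall into 3 styles: the first holds all SPF WT and ABX WT libraries, the second these 4, and the third all GF libraries and the other 5 ABX 5xFAD libraries. Border-associated macrophage markers were highest in ABX 5xFAD mice, at 32.8 to 242 CPM, against 9.43 to 77.0 CPM in GF 5xFAD mice. GF 5xFAD mouse FAD_GF_201 carries WT in its description but 5xFAD in its title and genotype label; its Cst7, a gene of amyloid-responding microglia, stood at 774 CPM, within the 537 to 1608 CPM of the 5xFAD libraries and above the 5.71 to 17.1 CPM of WT. Counts are of bulk libraries, so fewer cells of a type and less RNA per cell cannot be told apart. Nothing in the labels ties several libraries to 1 mouse, and p-values measure the spread between mice.

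Levels of different genes were compared per kb of exon. On this scale the highest members were Psmb2, a non-catalytic beta subunit, at 108 CPM per kb, the alpha subunit Psma2 at 106 and the beta subunit Psmb1 at 103, each as the mean over the 28 mice. The lowest were the chaperone Psmd9 at 3.67, the alpha subunit Psma8 at 4.66 and Psme4 at 4.95 CPM per kb. Among the 3 catalytic subunits, Psmb6 (caspase-like site) stood at 71.4 CPM per kb, Psmb5 (chymotrypsin-like site) at 22.5 and Psmb7 (trypsin-like site) at 10.7. These levels are uncertain, as 54.1% of the 50-base stretches of Psmb5 are shared with other genes, against 1.05% in Psmb6 and 9.26% in Psmb7. The scale also uses the summed exon length of a gene, which need not be the length of the transcripts present. Psma8, the alpha subunit of germ cells, was thus counted at a low level of 7.89 CPM in cells where it is not a usual subunit.

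**Figure D1:**
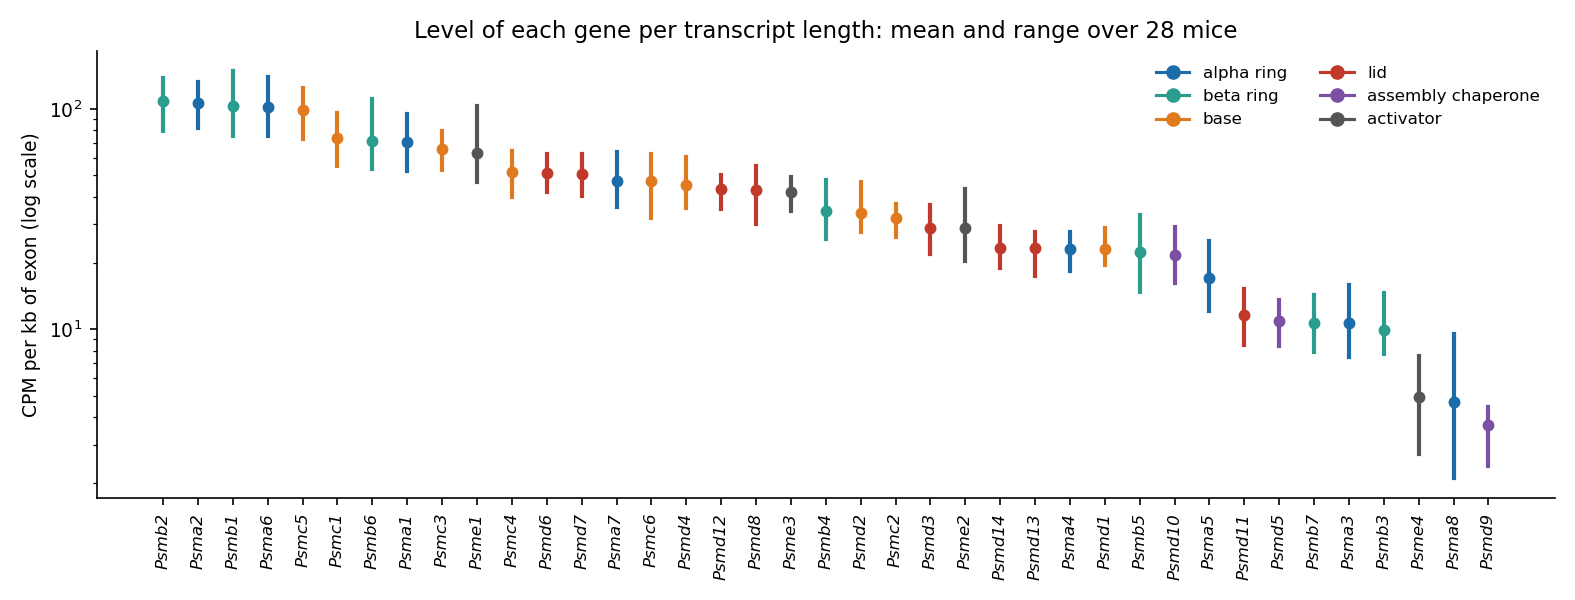
Level of each of the 39 genes in CPM per kb of summed exon length on a log axis, with the mean as a point and the range over 28 mice as a line, coloured by role. Psmb2, Psma2 and Psmb1 stand at the top above 100 CPM per kb, and Psmd9, Psma8 and Psme4 lie at the bottom below 5.

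Among 5xFAD mice, GF was compared with SPF to ask how microglia facing amyloid differ when no microbiota is present. Of the 39 genes, 21 were higher in GF 5xFAD and 0 lower, against 6.97% higher and 5.86% lower among all genes tested (edgeR quasi-likelihood test, Benjamini-Hochberg adjusted p under 0.05). Fold changes below are log2 values from that test, ± their SE, and values of single mice stand in the order of the mouse numbers. The core particle accounted for 9 of these genes, with 6 of 7 beta subunits and 3 of 8 alpha subunits. The regulatory particle gave 10, with 5 of 9 base and 5 of 8 lid genes, and the activators gave 2 of 4. None of the 3 assembly chaperones passed. The median log2 fold change was 0.52 in the core and 0.37 in the regulatory particle, against 0.02 over all genes.

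The catalytic subunit Psmb6 was counted at 129, 110.1 and 114 CPM in the 3 SPF 5xFAD mice and at 197, 206, 193, 190.1 and 168 CPM in the 5 GF 5xFAD mice. All 5 GF mice thus lay above all 3 SPF mice, with a log2 fold change of 0.73 ± 0.13 (adjusted p = 0.00155). Psmb5, which carries the chymotrypsin-like site, was at 17.8, 16.5 and 14.4 CPM against 28.8, 23.7, 26.3, 25.0 and 21.4 CPM. Again the groups did not overlap, and the log2 fold change was 0.66 ± 0.15 (adjusted p = 0.0051). Psmb7, with the trypsin-like site, was at 35.2, 31.4 and 29.4 CPM against 48.8, 48.4, 46.4, 46.2 and 37.6 CPM. Its log2 fold change was 0.54 ± 0.13 (adjusted p = 0.00838). All 3 constitutive catalytic subunits were thus called higher in this fit, in a range of 1.45-fold (Psmb7) to 1.66-fold (Psmb6). The call of Psmb5 was lost with gene length corrected. Further core genes were among the strongest calls: the alpha subunit Psma7 differed by 0.55 ± 0.12 (adjusted p = 0.00327) and the beta subunit Psmb2 by 0.57 ± 0.13 (adjusted p = 0.00507).

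Of the 6 ATPases of the regulatory particle, 4 were higher (Psmc1, Psmc3, Psmc4 and Psmc5), and Psmc2 (0.25 ± 0.10, adjusted p = 0.0853) and Psmc6 (-0.24 ± 0.14, adjusted p = 0.301) were not called. Psmc3 was at 149, 142 and 138 CPM in SPF 5xFAD and at 179, 207, 187, 202 and 204 CPM in GF 5xFAD mice. The 2 groups did not overlap, with a log2 fold change of 0.48 ± 0.10 (adjusted p = 0.00283). The ATPases Psmc5 (0.50 ± 0.11, adjusted p = 0.00489) and Psmc4 (0.47 ± 0.10, adjusted p = 0.00463) changed by a similar amount on the log2 scale. Psmd4, a receptor for ubiquitin chains in the base, was at 135, 111 and 113 CPM against 170.2, 138, 159, 145 and 154 CPM and rose by 0.39 ± 0.11 (adjusted p = 0.0168) on the log2 scale. With gene length corrected Psmc3 and Psmc4 kept their calls, and Psmc1, Psmc5 and Psmd4 lost theirs. The lid deubiquitinase Psmd14 was not called, with 75.1, 54.6 and 59.7 CPM in SPF and 66.6, 72.5, 61.0, 73.8 and 72.0 CPM in GF 5xFAD mice. All its GF values lay inside the SPF range, and the log2 difference was 0.16 ± 0.12 (adjusted p = 0.407).

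Both PA28 subunits rose together. Psme1 was at 143, 131 and 134 CPM in SPF 5xFAD and 214, 198, 227, 197 and 173 CPM in GF 5xFAD mice, a log2 fold change of 0.60 ± 0.11 (adjusted p = 0.00149) that was the smallest p among the 39 genes. Psme2 was at 57.1, 42.7 and 43.1 against 76.6, 63.9, 76.3, 75.0 and 62.1 CPM, a log2 fold change of 0.60 ± 0.15 (adjusted p = 0.00845). The nuclear activators did not pass: Psme3 differed by 0.28 ± 0.10 (adjusted p = 0.062) and Psme4 by -0.25 ± 0.19 (adjusted p = 0.434). Psme1 (chr14:55578123-55581529, plus strand, GRCm38) and Psme2 (chr14:55587441-55591113, minus strand) are neighbours on chromosome 14.

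In 24 of the 39 genes every GF 5xFAD mouse lay above every SPF 5xFAD mouse (10 core and 10 regulatory genes among them), against 9.48% of all genes tested. GF 5xFAD also held the highest group mean in 26 of 39 genes, where it was the highest group for 22.9% of all tested genes, and SPF 5xFAD the lowest in 22, against 15.0% of all tested genes. The 3 SPF 5xFAD libraries are all of the second numbering style and all carry the neutrophil reads given above. Endothelial markers summed to 23.9 to 29.7 CPM there against 9.42 to 21.4 CPM in GF 5xFAD mice. Over all libraries that sum was mostly Pecam1, with a median of 26.6 CPM. The medians were 0.638 CPM for Flt1, 0.38 CPM for Cdh5 and 0 CPM for Cldn5, Tie1 and Ly6c1. Genes with a read numbered 18547 to 19860 in SPF 5xFAD against 17381 to 18284 in GF 5xFAD libraries, and the TMM factor was 0.978 to 1.00 against 0.938 to 0.954, again without overlap. The part of these measures in the result was not tested. With the numbering style as a term, which only ABX 5xFAD mouse FAD_ABX_1151 makes possible, 0 of the 39 genes and 0 of all genes were called, and the median over the members fell from 0.38 to 0.08. Without SPF 5xFAD mouse FAD_SPF_1148 the count was 5, and without mouse FAD_SPF_1146 it was 6.

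**Figure D2:**
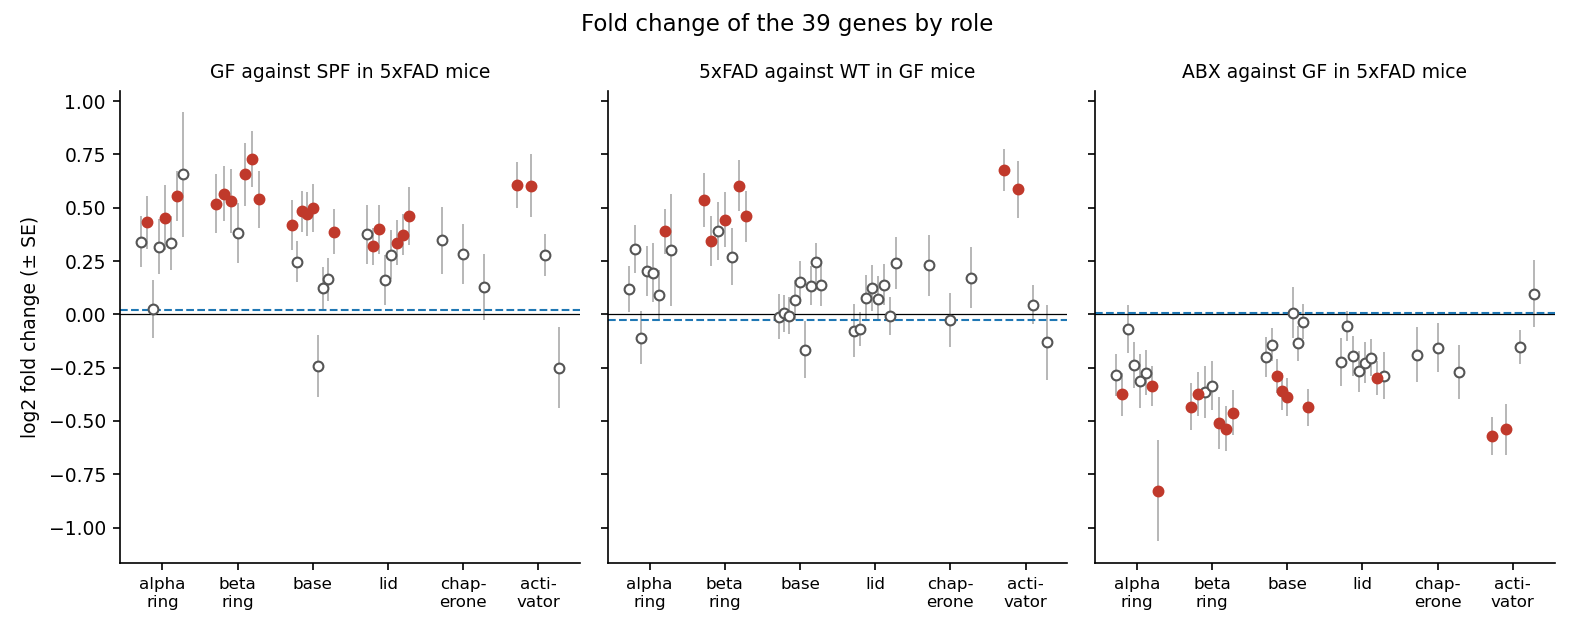
Log2 fold change with its SE (vertical axis) for each of the 39 genes, grouped by role, in 3 comparisons; filled red points passed the adjusted p of 0.05, open points did not, and the dashed line is the median of all genes tested. Of the 7 beta ring genes 6 are called higher for GF against SPF in 5xFAD mice and 5 lower for ABX against GF, whereas the base and lid hold no called gene for 5xFAD against WT in GF mice.

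Promoter sequences were searched for letters that the members share around their start sites. RefSeq promoters (GRCm38.p6, 250 bases before to 50 after the start) were at hand for 32 of the 39 genes, 35 promoters in all, and were searched on both strands for TGACNNNGC (an antioxidant response element, the kind of site bound by the Nfe2l1 factor), CCAAT (NF-Y) and CCGGAAG (ETS). No entry was used for Psma8, Psmb1, Psmb2, Psmb7, Psmc3, Psmd3 and Psmd7. CCGGAAG occurred in 13 of the 35 promoters (37.1%), against 8.86% of all 32851 promoters, and it was found in 9 of 14 regulatory genes but 1 of 11 core genes. TGACNNNGC occurred in 6 promoters (17.1%, against 12.4% of all), and CCAAT in 12 (34.3%, against 37.4% of all). A match describes letters only. Shown are the 2 core and 2 regulatory genes with the smallest p in GF against SPF 5xFAD that have 1 promoter with a match, on the gene's strand from 5′ to 3′, with the matched letters in capitals. The Psmb6 match, TGACGGAGC, starts 9 bases before the start site, and Psma7 holds CCAAT 196 bases before it. Psmd12, a lid subunit, was called higher at 0.32 ± 0.09 (adjusted p = 0.0161), but not with gene length corrected. It holds CCGGAAG in reverse 17 bases before the start site and TGACNNNGC in reverse at 247. Psmd4 holds CCGGAAG 125 bases before the start site. Its 3 CCAAT matches lie 95 bases before, 1 base after and 20 bases after the start site.
Psmb6 promoter (chr11:70525107-70525406, plus strand): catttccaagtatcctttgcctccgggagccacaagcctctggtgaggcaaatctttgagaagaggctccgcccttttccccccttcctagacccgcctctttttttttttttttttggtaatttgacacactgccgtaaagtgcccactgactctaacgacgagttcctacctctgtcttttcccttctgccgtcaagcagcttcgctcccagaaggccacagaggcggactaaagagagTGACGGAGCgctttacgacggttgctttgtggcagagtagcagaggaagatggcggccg
Psma7 promoter (chr2:180042415-180042714, minus strand): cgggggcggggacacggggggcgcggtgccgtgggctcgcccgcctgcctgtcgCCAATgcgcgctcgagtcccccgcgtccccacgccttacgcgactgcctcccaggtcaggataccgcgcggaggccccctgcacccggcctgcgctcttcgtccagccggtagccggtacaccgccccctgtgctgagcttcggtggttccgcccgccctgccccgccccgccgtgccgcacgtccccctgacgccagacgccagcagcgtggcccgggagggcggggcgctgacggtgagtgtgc
Psmd12 promoter (chr11:107479278-107479577, plus strand): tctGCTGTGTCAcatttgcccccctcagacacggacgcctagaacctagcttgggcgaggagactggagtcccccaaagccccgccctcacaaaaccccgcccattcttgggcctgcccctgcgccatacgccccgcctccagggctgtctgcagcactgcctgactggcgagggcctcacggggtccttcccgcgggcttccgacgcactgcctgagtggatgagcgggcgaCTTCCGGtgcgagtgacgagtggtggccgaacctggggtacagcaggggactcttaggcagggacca
Psmd4 promoter (chr3:95042565-95042864, minus strand): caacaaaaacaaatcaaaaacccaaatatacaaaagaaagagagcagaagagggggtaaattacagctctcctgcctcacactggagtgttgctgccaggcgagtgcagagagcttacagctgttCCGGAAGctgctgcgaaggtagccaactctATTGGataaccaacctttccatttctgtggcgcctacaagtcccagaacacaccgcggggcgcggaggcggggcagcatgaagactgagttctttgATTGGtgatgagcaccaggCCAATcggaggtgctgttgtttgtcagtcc

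The effect of the transgene was next measured under germ-free housing, where GF 5xFAD was compared with GF WT, all in the third numbering style. Here 8 of the 39 genes were higher and 0 lower, against 9.43% higher and 6.2% lower among all genes. The calls fell on the core and on PA28: 5 of 7 beta subunits, 1 of 8 alpha subunits and Psme1 and Psme2 rose, while 0 of the 17 regulatory particle genes were called (1 at an unadjusted p under 0.05; DESeq2 called 1 and voomWithQualityWeights 0). The median log2 fold change was 0.44 in the beta ring, 0.20 in the alpha ring, 0.07 in the base and 0.08 in the lid, against -0.03 over all genes. Library measures also separated these 2 groups without overlap: mitochondrial reads made up 0.111 to 0.147% in GF WT against 0.168 to 0.290% in GF 5xFAD mice, and the TMM factor was 1.01 to 1.03 against 0.938 to 0.954. Endothelial markers, whose sum was mostly Pecam1, came to 28.6 to 35.5 CPM against 9.42 to 21.4 CPM. Microglial markers summed to 52276 to 55755 CPM in GF WT against 39803 to 49363 CPM in GF 5xFAD mice. The part of the mitochondrial share and of these markers in the result was not tested.

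Psme1 was counted at 116, 131, 141 and 127 CPM in the 4 GF WT mice, below each of the 5 GF 5xFAD values given above. Its log2 fold change was 0.68 ± 0.10 (adjusted p = 9.49e-06). Psmb6 was at 106, 142, 139.5 and 125 CPM in GF WT mice, likewise with no overlap, and differed by 0.60 ± 0.12 (adjusted p = 0.000477) on the log2 scale. Psmb7 was at 30.9, 34.3, 36.3 and 33.1 CPM in GF WT mice and differed by 0.46 ± 0.12 (adjusted p = 0.00761). The other called genes were Psme2 (0.59 ± 0.13, adjusted p = 0.00255), and the beta subunits Psmb1 (0.54 ± 0.13, adjusted p = 0.00309), Psmb4 (0.44 ± 0.13, adjusted p = 0.0171) and Psmb2 (0.34 ± 0.12, adjusted p = 0.0422). The call of Psmb2 was lost in 16 of 36 other settings. The alpha subunit Psma7 differed by 0.39 ± 0.11 (adjusted p = 0.0101). Every GF 5xFAD mouse lay above every GF WT mouse in 8 of the 39 members, the same 8 genes, and in 8.64% of all genes tested.

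Psmb5 did not pass here. It was at 19.3, 23.1, 21.3 and 20.8 CPM in GF WT mice, and its log2 difference was 0.27 ± 0.13 (adjusted p = 0.186). Psmd4 (0.14 ± 0.10, adjusted p = 0.381), Psmd14 (0.12 ± 0.11, adjusted p = 0.504), Psme3 (0.05 ± 0.09, adjusted p = 0.796) and Psme4 (-0.13 ± 0.18, adjusted p = 0.684) were not called either. Psmc3, which had risen in GF against SPF 5xFAD mice, was at 183, 203, 207 and 207 CPM in GF WT mice, on a par in range with the 179 to 207 CPM of GF 5xFAD mice. Without GF WT mouse WT_GF_199 the count of called genes was 5, and without GF 5xFAD mouse FAD_GF_201, whose description reads WT, it was 10. With library size in place of TMM scaling 4 genes were called. The median of all genes moved from -0.03 to -0.15, that of the core from 0.31 to 0.18, and that of the regulatory particle turned from 0.07 to -0.05.

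**Figure D3:**
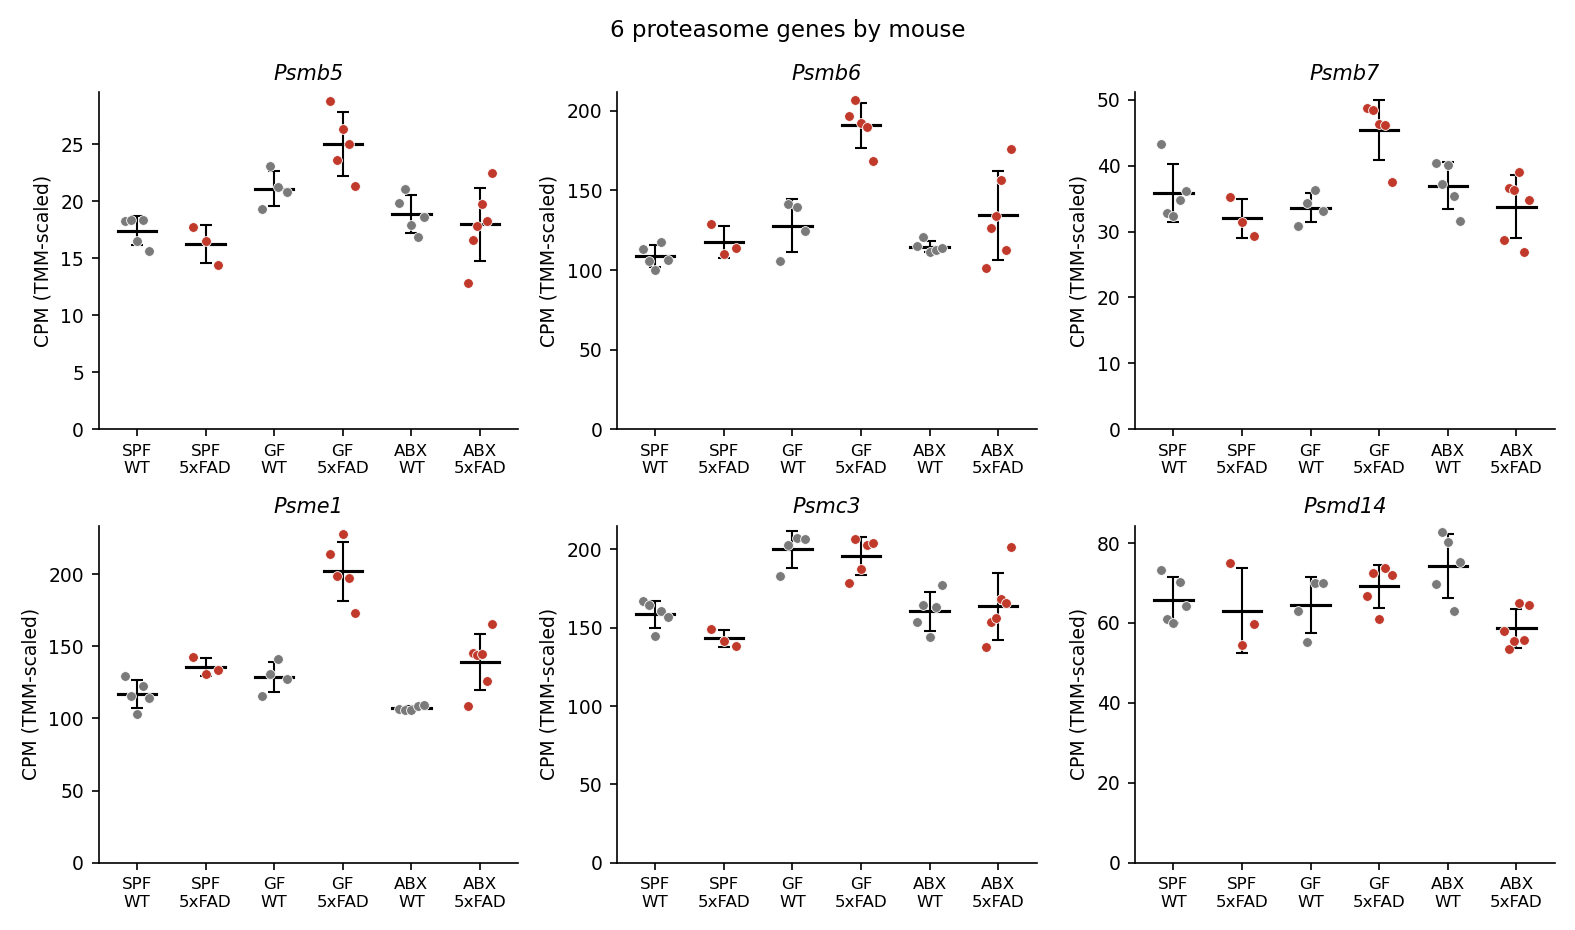
TMM-scaled CPM (vertical axis from 0) of 6 genes in each mouse by group, WT in grey and 5xFAD in red, with the group mean as a bar and its SD. Psmb6, Psmb7 and Psme1 have their GF 5xFAD points above those of GF WT and both SPF groups, save that 1 SPF WT value of Psmb7 exceeds its lowest GF 5xFAD value, Psmc3 is raised in both GF groups, and Psmd14 is highest in ABX WT.

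Antibiotic treatment was then set against germ-free housing within 5xFAD mice. Of the 39 genes, 15 were lower in ABX 5xFAD and 0 higher, against 6.07% lower and 4.52% higher among all genes. This comparison shares its GF 5xFAD mice with the previous 2, so its values stand beside theirs and are no independent support. The called genes were 8 of the core (5 of 7 beta and 3 of 8 alpha subunits), 5 of the regulatory particle (4 base and 1 lid gene) and Psme1 and Psme2. The median log2 fold change was -0.36 in the core and -0.22 in the regulatory particle, against 0.01 over all genes. With gene length corrected the core median was -0.22.

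Psme1 ranged over 109 (lowest), 144 (median) and 165 (highest) CPM in the 6 ABX 5xFAD mice, all below the GF 5xFAD mice. Its log2 fold change was -0.57 ± 0.09 (adjusted p = 0.000268). Psmb6 ranged over 101 (lowest), 130.2 (median) and 176 (highest) CPM, and 5 of the 6 ABX mice lay below every GF mouse. Its log2 fold change was -0.54 ± 0.10 (adjusted p = 0.00213). Psmd4 ranged over 100 (lowest), 116 (median) and 128 (highest) CPM with no overlap and fell by 0.44 on the log2 scale (adjusted p = 0.00234). The other strongest calls were Psme2 (-0.54 ± 0.12, adjusted p = 0.0055), Psmb5 (-0.51 ± 0.12, adjusted p = 0.00779), Psmb7 (-0.46 ± 0.11, adjusted p = 0.00716), Psmc5 (-0.39 ± 0.09, adjusted p = 0.00753) and Psmc4 (-0.36 ± 0.08, adjusted p = 0.00752). Groups did not overlap, with all ABX mice below, in 4 members (Psme1, Psmd4, Psmc4 and Psmc5), against 1.54% of all genes. Psmd14 (-0.27 ± 0.10, adjusted p = 0.0719), Psme3 (-0.15 ± 0.08, adjusted p = 0.238) and Psme4 (0.10 ± 0.16, adjusted p = 0.761) did not pass. Border-associated macrophage markers moved with this contrast. Endothelial markers, mostly Pecam1, summed to 19.4 to 30.2 CPM in ABX 5xFAD against 9.42 to 21.4 CPM in GF 5xFAD mice, with some overlap. The part of both marker sets in the result was not tested.

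The call also moved with 1 library: without ABX 5xFAD mouse FAD_ABX_1151, the one with neutrophil reads, 9 genes were called lower, and in a fit of the third numbering style alone, which has fewer mice, 1 was, with a median of -0.27 in the core. ABX against SPF in 5xFAD mice gave 0 of 39 genes in either direction, where the shares over all genes were 0% and 0%. At an unadjusted p under 0.05 there were 2 members, and DESeq2 and voomWithQualityWeights also called 0. The log2 difference was 0.19 ± 0.12 (adjusted p = 0.771) for Psmb6, 0.15 ± 0.14 (adjusted p = 0.867) for Psmb5 and 0.03 ± 0.10 (adjusted p = 0.962) for Psme1.

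**Figure D4:**
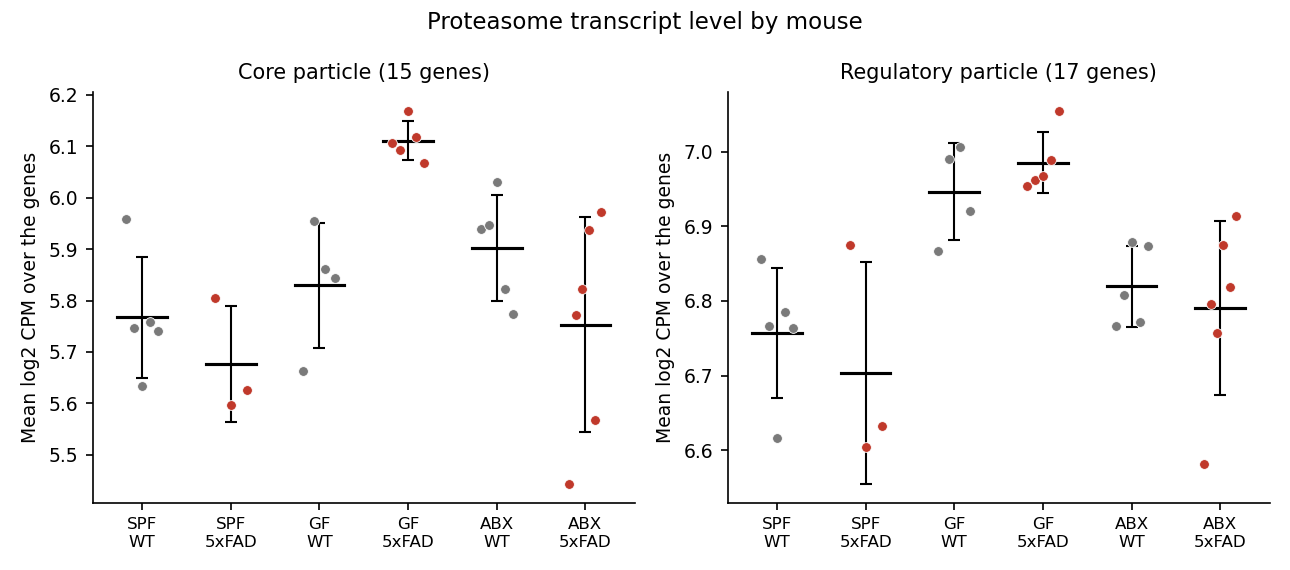
Mean log2 CPM over the 15 core genes (left) and 17 regulatory genes (right) in each mouse by group, WT in grey and 5xFAD in red, with the group mean as a bar and its SD. In the core panel the 5 GF 5xFAD mice (6.07 to 6.17) lie above every other mouse (not so without Psma8), while in the regulatory panel GF WT and GF 5xFAD overlap.

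Averaged over its genes, the core particle stood at a mean log2 CPM of 6.11 ± 0.04 (SD, n = 5) in GF 5xFAD mice. The other groups had 5.77 ± 0.12 (SPF WT, n = 5), 5.68 ± 0.11 (SPF 5xFAD, n = 3), 5.83 ± 0.12 (GF WT, n = 4), 5.90 ± 0.10 (ABX WT, n = 5) and 5.75 ± 0.21 (ABX 5xFAD, n = 6). Each of the 5 GF 5xFAD mice lay above the highest of the other 23, at 6.03. That order rests in part on the scarce Psma8: without it the GF 5xFAD mice ran from 6.21 to 6.37 and the highest other mouse stood at 6.23. The regulatory particle differed in this respect, with 6.87 to 7.01 in GF WT and 6.95 to 7.06 in GF 5xFAD mice, ranges that overlap. In SPF 5xFAD mice it ran from 6.60 to 6.88. The core minus the regulatory mean was -1.20 to -1.04 in GF WT mice and -0.99 to -0.80 in GF 5xFAD mice, with no overlap. In the other housings the group means went the other way, at -0.99 in SPF WT against -1.03 in SPF 5xFAD mice and -0.92 in ABX WT against -1.04 in ABX 5xFAD mice, and ABX WT mice reached -0.83, inside the GF 5xFAD range. These are descriptions of the members' levels, with no test.

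In SPF mice, 5xFAD against WT gave 0 of the 39 genes in either direction, where 3.73% of all genes were higher and 0.837% lower. At an unadjusted p under 0.05 there was 1 member, the lid gene Psmd12, named after its value was seen, DESeq2 called 0, and voomWithQualityWeights called 6 lower. The 3 SPF 5xFAD mice all lay above the 5 SPF WT mice in Psme1, which was at 129.6, 116, 103, 122 and 114 CPM in SPF WT, but the difference of 0.21 ± 0.11 (adjusted p = 0.38) did not pass. All 3 lay below the SPF WT mice in Psmd12, at 99.6, 92.8 and 94.4 CPM against 115, 109, 101, 104 and 109.5 CPM, with -0.18 ± 0.09 (adjusted p = 0.334). These were the single members without overlap in each direction, against 9.6% of all genes above and 7.13% below. The catalytic subunits gave -0.11 for Psmb5, 0.11 for Psmb6 and -0.17 for Psmb7 on the log2 scale, with an adjusted p of 0.862, 0.824 and 0.668. This contrast runs between the first and the second numbering styles and cannot be told apart from them.

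In ABX mice, 5xFAD was compared with WT. Of the 39, 2 were higher and 4 lower, against 9.45% higher and 4.98% lower among all genes. Psme1 was at 107, 106, 106, 109 and 109 CPM in the 5 ABX WT mice, a narrow range, and 5 of 6 ABX 5xFAD mice lay above it, with a log2 fold change of 0.36 ± 0.09 (adjusted p = 0.00507). The base scaffold subunit Psmd2 was the other higher gene (0.27 ± 0.08, adjusted p = 0.0238). The lower genes were the alpha subunits Psma3 (-0.43 ± 0.11, adjusted p = 0.00926) and Psma1 (-0.34 ± 0.10, adjusted p = 0.0161), the ATPase Psmc6 (-0.42 ± 0.12, adjusted p = 0.0161) and the deubiquitinase Psmd14. Psmd14 was at 69.8, 82.9, 80.3, 63.0 and 75.2 CPM in ABX WT and ranged over 53.5 (lowest), 56.9 (median) and 65.0 (highest) CPM in ABX 5xFAD mice, a log2 fold change of -0.35 ± 0.10 (adjusted p = 0.0132) with some overlap. Psmb5, Psmb6 and Psmb7 were not called, at -0.08, 0.22 and -0.14 on the log2 scale. Together the 6 calls are near the share over all genes and are no result about the members as a group. At an unadjusted p under 0.05 there were 12 members, 6 of them among the 8 alpha ring genes, against 4235 of all 15298 genes. The median log2 fold change was -0.28 in the alpha ring and -0.03 in the beta ring. With library size in place of TMM scaling 1 was higher and 9 lower. Without ABX WT mouse WT_ABX_911 the calls numbered 3 in place of 6. Border-associated macrophage markers separated these groups without overlap, at 3.74 to 5.90 CPM in ABX WT against 32.8 to 242 CPM in ABX 5xFAD mice, and their part in the result was not tested. This contrast, too, crosses numbering styles.

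Among WT mice few members were called between housings. GF against SPF called 2 of the 39 genes higher and 0 lower, against 0.869% higher and 0.752% lower among all genes. At an unadjusted p under 0.05 there were 10 members, 9 of them among the 17 regulatory genes, against 2538 of all 15298 genes. The median log2 fold change was 0.21 in the regulatory particle, against -0.005 over all genes. DESeq2 and voomWithQualityWeights called more members, with counts in the last section. The lid subunit Psmd11 was at 69.5, 71.9, 53.9, 67.0 and 61.6 CPM in SPF WT and at 83.1, 97.0, 86.1 and 94.6 CPM in GF WT mice. These did not overlap, and the log2 fold change was 0.48 ± 0.12 (adjusted p = 0.0446). Psmc3 was at 167, 164, 145, 160.4 and 156 CPM in SPF WT mice, below all 4 GF WT values, with 0.33 ± 0.09 (adjusted p = 0.0446). ABX against GF in WT mice called the same 2 genes lower and 0 higher, against 4.48% lower and 2.4% higher among all genes, with -0.48 ± 0.13 (adjusted p = 0.0208) for Psmd11 and -0.31 ± 0.09 (adjusted p = 0.0306) for Psmc3. The latter count is near the share over all genes. Both contrasts share the GF WT mice. Border-associated macrophage markers summed to 10.7 to 41.9 CPM in GF WT, 3.48 to 8.09 CPM in SPF WT and 3.74 to 5.90 CPM in ABX WT mice, and mitochondrial reads made up 0.111 to 0.147%, 0.162 to 0.285% and 0.179 to 0.347%. Both thus separated GF WT from the other WT mice without overlap, and their part in the result was not tested. Both contrasts also cross the first and the third numbering styles, and housing cannot be told apart from these there. The GF against SPF count fell to 1 or 0 without any 1 of 17 of the 28 mice, which were all 5 SPF WT mice, GF WT mice WT_GF_229, WT_GF_230 and WT_GF_231, SPF 5xFAD mice FAD_SPF_1144 and FAD_SPF_1148, GF 5xFAD mice FAD_GF_182, FAD_GF_184, FAD_GF_185 and FAD_GF_201, and ABX 5xFAD mice FAD_ABX_1452, FAD_ABX_1453 and FAD_ABX_1455. The ABX against GF count fell to 1 or 0 without GF WT mouse WT_GF_229, WT_GF_230 or WT_GF_231 or ABX WT mouse WT_ABX_909, WT_ABX_910 or WT_ABX_911, and rose to 4 without ABX WT mouse WT_ABX_932.

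ABX against SPF in WT mice, both of the first numbering style, called 0 of 39 genes and 0% of all genes in either direction. At an unadjusted p under 0.05 there were 4 members, and DESeq2 and voomWithQualityWeights called 0 of them.

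The difference between the effects of the transgene under different housing was tested directly as an interaction. For ABX against GF, Psmb7 alone passed: its transgene effect was 0.46 in GF and -0.14 in ABX mice, and the difference was -0.60 ± 0.16 (adjusted p = 0.0492). The share over all genes was 0.915% higher and 0.843% lower. At an unadjusted p under 0.05 there were 16 members, 12 of them core genes, against 2436 of all 15298 genes. All 15 core genes had a negative value, with a median of -0.39. DESeq2 and voomWithQualityWeights called more members, with counts in the last section. Psmd14 gave -0.47 ± 0.14 (adjusted p = 0.0868) and Psmb6 -0.39 ± 0.16 (adjusted p = 0.21), which did not pass. This single call sat at the threshold and was lost in 28 of 35 other settings, 23 of them leaving out 1 mouse. For GF against SPF, 0 members were called (0% higher and 0% lower among all genes), with 10 at an unadjusted p under 0.05, 0 by DESeq2 and 3 higher by voomWithQualityWeights. The largest difference among the catalytic subunits was 0.63 ± 0.18 (adjusted p = 0.337) for Psmb7. For ABX against SPF, 0 members were called (0% and 0% of all genes), with 1 at an unadjusted p under 0.05 and 0 by either other tool.

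Gene length moved with these contrasts. Proteasome genes are short, with a median summed exon length of 2370 bases (1872 in the core and 2808 in the regulatory particle) against 3516 for all tested genes. In GF against SPF 5xFAD mice the median log2 fold change of all genes fell from 0.20 in the shortest of 4 equal length classes to -0.19 in the longest. Members in those classes had medians of 0.48 (14 genes) and 0.13 (5 genes), and in each class their median was above that of all genes. All 21 called members lay in the shorter 2 classes, which hold 30 of the 39 genes. With the length trend of each library removed, 10 members were called higher and 1 lower, the ATPase Psmc6, named after its value was seen, at -0.48 (adjusted p = 0.0397). The catalytic Psmb5 was no longer called (0.37, adjusted p = 0.0623). Psmc1, Psmc5, Psmd4 and Psmd12 were among the other members that lost their calls. The core median fell from 0.52 to 0.24. In GF 5xFAD against GF WT mice, where the medians of all genes ran from 0.11 to -0.11, the correction left the count at 8 but not the same genes: Psmb2 was no longer called (0.13, adjusted p = 0.266), the other 7 were, and the core median fell from 0.31 to 0.14.

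**Figure D5:**
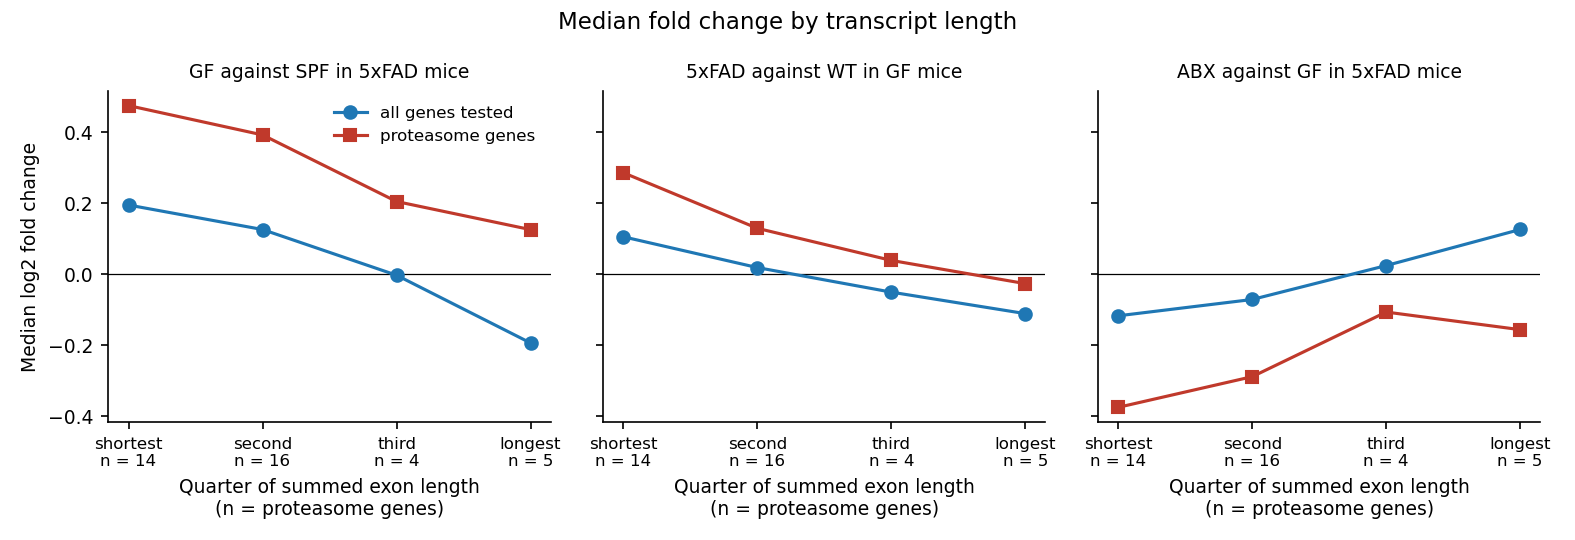
Median log2 fold change (vertical axis) of all genes tested (blue circles) and of the proteasome genes (red squares) in 4 classes of summed exon length, in 3 comparisons, with the number of proteasome genes under each class. Both lines slope the same way, from 0.48 to 0.13 for the proteasome genes in the first panel, and the proteasome genes lie above all genes in the first 2 panels and below them in the third.

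Genes that work beside the subunits were taken from a list of which 21 are reported, all of them tested. In GF against SPF 5xFAD mice 5 were higher and 1 lower, against the 6.97% and 5.86% of all genes. The inducible catalytic subunit Psmb8, which replaces Psmb5 in immunoproteasomes, was at 149.8, 124 and 129 CPM in SPF and 219, 222, 211, 195 and 158 CPM in GF 5xFAD mice, with no overlap and a log2 fold change of 0.62 ± 0.14 (adjusted p = 0.00477). Psmb10, the counterpart of Psmb7, rose by 0.70 ± 0.17 (adjusted p = 0.00754). Among assembly factors, Pomp, the maturation factor of the core, was at 193, 147 and 143 against 276, 251, 218, 239 and 213 CPM and rose by 0.61 ± 0.13 (adjusted p = 0.00433), and Psmg4 rose by 0.70 ± 0.23 (adjusted p = 0.0384). The polyubiquitin gene Ubb rose by 0.64 ± 0.11 (adjusted p = 0.000994), and AI314180, which encodes a proteasome adaptor, was lower (-0.52 ± 0.17, adjusted p = 0.0453). Nfe2l1, the transcription factor of proteasome genes, was not called, with 97.3, 124 and 118 CPM in SPF and 88.1, 117, 109.99, 98.7 and 123 CPM in GF 5xFAD mice.

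In GF 5xFAD against GF WT mice 7 of the 21 were higher and 0 lower (all genes 9.43% and 6.2%), among them Psmb8 (0.65 ± 0.13, adjusted p = 0.000408), Psmb9 (0.39 ± 0.13, adjusted p = 0.0393), Pomp (0.58 ± 0.12, adjusted p = 0.00102) and Psmg4 (1.03 ± 0.21, adjusted p = 0.000681). In ABX against GF 5xFAD mice 5 were lower and 0 higher (all genes 6.07% and 4.52%), with -0.39 for Psmb8 and -0.45 for Pomp on the log2 scale. In ABX 5xFAD against ABX WT mice 2 were higher, Psmb8 (0.34 ± 0.11, adjusted p = 0.0384) and Nfe2l1 (0.34 ± 0.11, adjusted p = 0.03), and the proteasome-bound thioredoxin Txnl1 was lower (-0.33 ± 0.10, adjusted p = 0.0264). These counts are near the 9.45% higher and 4.98% lower of all genes and are no result about the list. In ABX against GF WT mice, where 4.48% of all genes were lower, 2 were lower, Psmb10 (-0.51 ± 0.15, adjusted p = 0.0387) and Ubb (-0.32 ± 0.10, adjusted p = 0.0429). In 5xFAD against WT SPF mice, ABX against SPF 5xFAD mice, GF against SPF WT mice and ABX against SPF WT mice, 0 of the 21 were called by edgeR, with 1, 2, 4 and 1 at an unadjusted p under 0.05. No other tool was run for a count over this list.

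Some members share sequence with other genes, so that their counts are less certain. Of the exact 50-base stretches (the read length) in the GENCODE M21 transcripts of each member, none were shared with another gene in 15 members, Psmc4, Psmc5, Psmd4, Psmb2 and Psmb4 among them. The share was highest in Psmb5 (54.1%, with a pseudogene and others), Psma5 (50%) and Psme2 (28.3%, with Psme2b and another gene). It was 1.05% in Psmb6 and 5.47% in Psme1. Psmb7 (chr2:38588036-38644087, minus strand, GRCm38) overlaps the opposite-strand gene Nek6 over 9.26% of its stretches, and Psmc3 (chr2:91054009-91066369, plus strand) overlaps Slc39a13 over 4.37%, which a library kit that does not mark strand cannot separate.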

How the data were processed

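Microglia RNA was amplified with the SMARTer v4 kit, which does not mark strand, and sequenced as 50-base single reads. STAR (genome GRCm38) served the authors for alignment, featureCounts with the GENCODE M21 annotation gave 1 count per gene and mouse, and the table was deposited as raw counts. The submitters' processing notes name STAR 2.7.2, featureCounts 1.6.2 and the human build GRCh38.p12, which the mouse gene IDs of the table do not bear out. The 92 spike-in entries were left out. Columns were matched to the labelled mice by name, and no 2 libraries of a group were alike within sampling noise.

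Genes passing filterByExpr (15298 of 48587) were fitted in edgeR 4.0.16 (R 4.3.3) with TMM scaling and its quasi-likelihood test over all 6 groups, with Benjamini-Hochberg adjustment over all genes and a threshold of 0.05. CPM values are TMM-scaled and log2 CPM uses a prior count of 2. Depth limits the precision of low genes, and the spread between mice sets the errors. Named are, per comparison, up to 8 called members per direction by smallest p, the catalytic subunits, Psmd4, Psmd14, the activators, and the 3 highest and 3 lowest members per kb. The members, the 21 pathway genes and the motifs were chosen with earlier results of these data known. Alternatives were RLE size factors, library size alone, no filter, DESeq2 1.42.0, voomWithQualityWeights (limma 3.58.1), length offsets and leaving out each mouse. Numbering style as a term and 26 mice (without ABX 5xFAD mice FAD_ABX_1151 and FAD_ABX_1482) were also planned, and fits within the first or the third style alone were chosen after seeing the data. The fit was tested on simulated data with known changes. Its limits on false calls and on the error of the fold change were met, but after a change of random seed the recovery of changed genes missed the limit first set, which was then lowered. Some genes of the pathway and marker lists are not reported here.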

Additional observations from a re-analysis of the deposited data

Results flagged for a closer look

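In 60 comparisons, each within a group of 4 to 6 mice, the highest or lowest value was set against Dixon's critical value. The values were of a named gene, a particle mean or the core minus the regulatory mean. Of these comparisons 3 passed, about what chance gives at 1 in 20. Psmb7 in GF 5xFAD mouse FAD_GF_201 was at 37.6 CPM, with the other 4 mice from 46.2 to 48.8 CPM. Psmd4 in ABX WT mouse WT_ABX_932 was at 132.7 CPM, with its nearest neighbour at 113 CPM. Psme3 in ABX WT mouse WT_ABX_923 was at 138 CPM, with its nearest neighbour at 122 CPM. The 5xFAD effect on Psmb7 differed between ABX and GF mice by -0.60 on the log2 scale in the interaction test of edgeR (adjusted p = 0.0492), a call at the threshold.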

How the results depend on the processing

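No paired analysis was possible because the groups share no mouse numbers. Counts of called members moved by over 1.5 times as follows, and the cause was not tested. For GF against SPF in 5xFAD mice (21), library size alone, no low-count filter and gene length offsets each gave 11, and numbering style as a term gave 0. For ABX against GF in 5xFAD mice (15), no filter gave 9, length offsets 8 and the third numbering style alone 1, where fewer mice were fitted. For 5xFAD against WT, library size alone gave 4 in GF mice (8) and 10 in ABX mice (6), and voomWithQualityWeights gave 6 in SPF mice (0). For GF against SPF in WT mice (2), no filter gave 0, DESeq2 4 and voomWithQualityWeights 9. For ABX against GF in WT mice (2), these gave 1, 4 and 7, and 26 mice gave 6. For the interaction of ABX and GF (1), RLE size factors, library size alone and no filter gave 0, DESeq2 4 and voomWithQualityWeights 2, and for that of GF and SPF (0) voomWithQualityWeights gave 3.

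Leaving out 1 mouse gave 5 to 24 for GF against SPF in 5xFAD mice, 9 (without ABX 5xFAD mouse FAD_ABX_1151) to 21 for ABX against GF in 5xFAD mice, 5 to 10 and 3 to 8 for 5xFAD against WT in GF and ABX mice, 0 to 2 and 0 to 4 for GF against SPF and ABX against GF in WT mice, and 0 to 4 for the interaction of ABX and GF. Uncalled values that changed sign were, for 5xFAD against WT in GF mice, Psmb5 (-0.025 with length offsets), Psmd14 (-0.0029 with library size alone) and Psme3 (-0.079 with library size alone), and, for ABX against GF in 5xFAD mice, Psme4 (-0.028 with length offsets, and -0.019 to 0.22 leaving out 1 mouse). The 38 called pairs of a named gene and a comparison changed sign in 0 of 1365 refits and lost their call in 137. Library size alone also moved the split of all genes called higher and lower, from 1066 and 896 to 626 and 1295 for GF against SPF in 5xFAD mice, from 1442 and 949 to 1107 and 1919 for 5xFAD against WT in GF mice, and from 692 and 929 to 1173 and 554 for ABX against GF in 5xFAD mice.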
